A study of Mus musculus with 9 samples.

Results

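This is an account of how the transcripts of mouse myocytes changed over 24 h of exposure to TGFβ1, taken from all 24704 probe sets that carry a single gene symbol. It rests on 6 of the 9 arrays of the study, 3 from cultures given 20 ng/ml of TGFβ1 and 3 from control cultures given none. The labels list no treatment time for the controls, so whether they were of the same age at collection is not stated. Both groups were primary myoblasts grown from satellite cells of C57BL/6 skeletal muscle (the substrain in the methods is C57Bl6/N), plated at 30000 cells per cm2 and held in differentiation medium for 24 h before the treatment began. The remaining 3 arrays, from cultures given the TGFβ inhibitor ITD-1, entered the fit only to share the estimate of the spread. The model is one of isolated cells in a dish at a single dose and a single time, and the labels do not say whether the 3 cultures of a group came from different animals. The study describes them as biologically independent experiments.

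TGFβ1 is a secreted growth factor sensed by a pair of kinase receptors at the cell surface. Signals reach the genome through the SMAD proteins, with SMAD4 as the shared partner, and other DNA-bound factors decide which genes respond. The ligand is best known in connective tissue cells for raising matrix genes and in muscle for holding back differentiation, and the pathway dampens itself by raising inhibitors of its own receptors and SMADs. Myocytes are mononucleated muscle cells that have left the cell cycle and begun to make contractile proteins.

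Each value below is a log2 signal of the Affymetrix MouseGene 2.0 ST array, on which a difference of 1 is a 2-fold change, and each change is the TGFβ1 mean minus the control mean. A gene was called when its Benjamini-Hochberg adjusted p from limma was under 0.05. Adjusted p values are limma's except where the analysis of variance is named. Array medians were 4.09 to 4.19 in TGFβ1 cultures and 4.12 to 4.18 in control cultures. In both groups replicate 3 had the highest median and the smallest standard deviation over probe sets (2.006 with TGFβ1 and 2.001 in control). Arrays correlated at 0.9935 to 0.996 within TGFβ1 cultures, 0.994 to 0.996 within control cultures and 0.9875 to 0.9905 between them. Muscle markers were present, since all 14 measured genes of a muscle lineage list lay above the median signal. Array means of that list were 10.0 to 10.1 in TGFβ1 cultures and 10.1 to 10.2 in control cultures. Among its members, 1 was called higher (*Ckm*) and 2 were called lower (*Myf6* and *Myh3*). Lists for fibroblasts, endothelial cells, macrophages, T and natural killer cells and adipocytes had array means of 3.44 to 3.77 in TGFβ1 cultures and 3.42 to 3.79 in control cultures. Of these 5 lists, 1 member was called higher (*Ctsw*) and 2 were called lower (*Itgam* and *Pparg*, the first of which missed the threshold without replicate 3 of both groups, at 0.057, and by the methods' analysis of variance, at 0.060). A smooth muscle and pericyte list had array means of 5.50 to 5.60 with TGFβ1 and 5.68 to 5.76 without, a Schwann cell and neuron list 4.47 to 4.67 and 4.36 to 4.59, and a tendon and cartilage list 4.62 to 4.74 and 4.64 to 4.69, with 2 members called higher and 2 lower among the 3 lists. In whole cultures, fewer cells of a type and less RNA per cell cannot be told apart.

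TGFβ1 raised more genes than it lowered. A total of 902 genes were called higher in TGFβ1-treated myocytes (3.65% of those tested) and 687 were called lower (2.78%). The median size of the change was 0.61 among the rises and 0.54 among the falls, beside a median change of -0.01 over all genes. At least a 2-fold change was seen in 149 rises (0.603% of genes tested) and 72 falls (0.291%), at least a 1.5-fold change in 487 rises (1.97%) and 298 falls (1.21%), and at least a 4-fold change in 22 rises and 3 falls. The 3 TGFβ1 arrays and the 3 control arrays did not overlap in all 902 rises and in 686 of the 687 falls. Non-overlap alone was common, at 10.4% of all genes in the upward direction and 10.1% downward. Calls were concentrated among well-expressed genes, since the 6176 genes with the highest signal held 548 rises and 478 falls, against 2 and 3 among the 6176 with the lowest. Leaving out any single array lowered both counts, with the fewest falls at 434 without control replicate 2 and 448 without TGFβ1 replicate 1. Each such fit had fewer arrays, and that loss cannot be told apart from an effect of the array left out. The criteria in the methods, at least a 1.5-fold change with p under 0.05 by analysis of variance and no adjustment, were met by 509 rises (2.06%) and 316 falls (1.28%). The p used here was that of the contrast between TGFβ1 and control, with the spread pooled over all 3 groups. The methods do not say which p of the analysis of variance was taken.

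**Figure D1:**
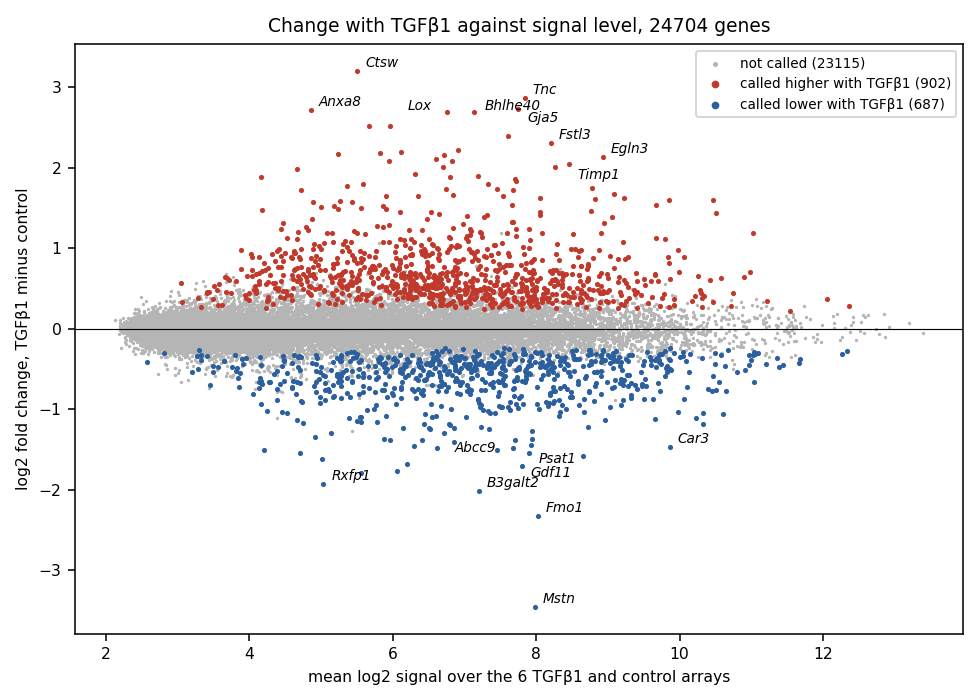
Change with TGFβ1 (TGFβ1 minus control, log2) against mean log2 signal over the 6 arrays, 1 point per gene, with called rises in red, called falls in blue and other genes in grey. *Ctsw* stands highest at 3.21 and *Mstn* lowest at -3.46, and few genes below a signal of 4 were called.

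The largest rise was that of *Ctsw*, which encodes cathepsin W, a cysteine protease known from cytotoxic lymphocytes. Its signals were 7.28, 7.23 and 6.82 in TGFβ1 cultures, against 3.79, 3.96 and 3.95 in control cultures, a 9.23-fold difference (log2 change 3.21, standard error 0.13, adjusted p = 3.8e-06). The other 11 measured T and natural killer cell markers were not called, and 11 of the 12 members lay below the median signal. *Anxa8*, a calcium-dependent membrane-binding annexin, gave 6.27, 6.58 and 5.80 with TGFβ1 and 3.50, 3.44 and 3.55 without it (6.58-fold, adjusted p = 1.8e-05). In both genes the TGFβ1 arrays stood clear of a tight cluster of control arrays below the array median, where the deposited values carry no detection call, so the fold could not be checked against background. The same limit holds for the folds of *Timp3*, *Xirp2*, *Myl2*, *Lif*, *Usp18* and *Mir181b-2*, whose control means were also at or below the array medians, and for those of *Car2*, *Colec10*, *Rxfp1*, *Itgam* and *Mir133a-1*, whose TGFβ1 means were.

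The 20 largest rises included 3 genes of cell contact. *Gja5* encodes connexin 40, a gap junction subunit, and its signals were 8.93, 9.16 and 9.25 in TGFβ1 cultures, against 6.47, 6.23 and 6.44 in control cultures (6.66-fold, standard error 0.12, adjusted p = 4.2e-06). *Adgrg1*, the adhesion receptor GPR56, gave 8.78, 8.84 and 8.78 with TGFβ1 and 6.27, 6.56 and 6.39 without (5.24-fold, adjusted p = 1.4e-05). *Cdh6*, a classical cadherin, gave 7.06, 7.02 and 6.87 against 5.18, 4.80 and 4.73 (4.23-fold, adjusted p = 1.3e-05). All 3 of these genes were separated by a gap between the groups that was wider than the range within either. *Lrtm1*, which encodes a leucine-rich repeat membrane protein, rose 5.74-fold, *Nptx1*, a secreted pentraxin of neurons, rose 5.74-fold, and *Tmem184a*, a membrane protein, rose 4.67-fold.

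Among the 20 largest rises were also 7 genes for secreted matrix proteins, enzymes and inhibitors. *Tnc*, encoding the matrix glycoprotein tenascin C, gave 9.25, 9.35 and 9.23 in TGFβ1 cultures and 6.39, 6.47 and 6.37 in control cultures. *Lox*, encoding the enzyme lysyl oxidase that cross-links collagen and elastin, gave 7.97, 8.31 and 8.04 with TGFβ1 and 5.48, 5.52 and 5.22 without, so both genes had tight and well separated groups. *Timp3* and *Timp1* encode inhibitors of matrix metalloproteinases. *Timp3* signals were 6.36, 6.75 and 5.83 in TGFβ1 cultures and 3.87, 4.52 and 4.05 in control cultures (4.49-fold, standard error 0.25, adjusted p = 0.0007), with the largest standard error of the 20 largest rises. *Timp1* signals were 9.56, 9.61 and 9.31 with TGFβ1, against 7.57, 7.54 and 7.21 without (4.14-fold, adjusted p = 0.00023). *Adamtsl2*, a microfibril-associated protein that lacks protease activity, gave 7.69, 7.87 and 7.80 against 5.69, 5.60 and 5.62 (4.45-fold, adjusted p = 6e-06). *Mfap4*, another microfibril-associated glycoprotein, gave 9.27, 9.50 and 9.02 against 7.49, 7.43 and 6.84 (4.01-fold, adjusted p = 0.00015). *Fstl3*, a secreted protein that binds activin and myostatin, gave 9.34, 9.58 and 9.15 with TGFβ1 and 7.14, 7.24 and 6.76 without (4.95-fold, adjusted p = 0.00012). For *Timp1*, *Mfap4* and *Fstl3*, replicate 3 was the lowest of its group in both groups.

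Several of the 20 largest rises encode intracellular regulators. *Bhlhe40* encodes a repressor of the basic helix-loop-helix family, and its signals were 8.59, 8.53 and 8.35 in TGFβ1 cultures and 5.79, 5.94 and 5.64 in control cultures (6.48-fold, standard error 0.10, adjusted p = 2.2e-06). Its relative *Bhlhe41* gave 9.13, 9.04 and 8.93 against 8.03, 8.06 and 8.03 (1.99-fold, adjusted p = 4.2e-05). *Egln3*, a prolyl hydroxylase that marks HIF subunits for destruction, gave 9.95, 10.00 and 10.07 with TGFβ1 and 8.09, 7.72 and 7.79 without (4.4-fold, adjusted p = 3e-05). *Pde2a*, a phosphodiesterase that degrades cyclic AMP and cyclic GMP, gave 7.83, 7.92 and 7.87 against 5.94, 5.94 and 5.48 (4.24-fold, adjusted p = 3e-05). In each of these 4 genes every TGFβ1 array was above every control array.

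The SMAD box, the short sequence CAGACA to which SMAD3 and SMAD4 bind, was looked for on both strands of RefSeq promoter windows (build GRCm38.p6, 250 bases before to 50 after a start). Windows were found for 18379 of the genes tested. It occurred in 22.97% of the 148 windows of genes that rose at least 2-fold, in 14.3% of the 70 windows of genes that fell at least 2-fold and in 18.9% of all 22377 windows. Over every called gene the shares were alike, at 16.9% of windows for rises and 16.7% for falls, and the sarcomere list, with more falls than rises, stood at 24.6%. In the 250 bases before the start alone, the shares were 20.9%, 10.0% and 15.3%. A match describes the letters and is not a binding site. The promoters of *Tnc* and *Adgrg1*, among the strongest rises, are shown because each holds 1 match, at -71 and -115 from the start, in 1 of 2 annotated windows. They lie at chr4:64046937-64047186 on the minus strand and chr8:94976859-94977108 on the plus strand, and capitals mark CAGACA or its reverse complement.
Tnc: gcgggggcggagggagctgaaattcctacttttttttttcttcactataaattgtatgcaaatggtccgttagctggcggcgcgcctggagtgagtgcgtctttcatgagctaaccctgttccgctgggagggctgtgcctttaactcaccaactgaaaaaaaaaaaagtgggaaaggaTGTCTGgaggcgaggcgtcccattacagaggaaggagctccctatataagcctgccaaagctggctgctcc
Adgrg1: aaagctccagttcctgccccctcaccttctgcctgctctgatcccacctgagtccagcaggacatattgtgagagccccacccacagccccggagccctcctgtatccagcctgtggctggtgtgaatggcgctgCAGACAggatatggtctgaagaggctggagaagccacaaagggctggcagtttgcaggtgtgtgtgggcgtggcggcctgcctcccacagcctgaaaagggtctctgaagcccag

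The largest fall was that of *Mstn*, which encodes myostatin, a secreted brake on muscle growth of the TGFβ family. Its signals were 6.23, 6.39 and 6.14 in TGFβ1 cultures, against 9.76, 9.77 and 9.61 in control cultures (log2 change -3.46, standard error 0.11, adjusted p = 1.4e-06). *Gdf11*, its closest relative, gave 7.07, 7.04 and 6.76 with TGFβ1 and 8.74, 8.73 and 8.50 without (3.26-fold lower, adjusted p = 3.7e-05). Both ligands were thus lower in every TGFβ1 array. *Fmo1*, a flavin monooxygenase that oxidises xenobiotics, gave 7.00, 6.74 and 6.85 against 9.31, 9.23 and 9.02 (5.01-fold lower, adjusted p = 3.8e-06), and *B3galt2*, a galactosyltransferase of glycan synthesis, gave 6.33, 6.41 and 5.84 against 8.31, 8.26 and 8.04 (4.04-fold lower, adjusted p = 6e-05).

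The 20 largest falls also held genes of muscle and of other functions. *Myf6* encodes MRF4, the myogenic factor that peaks late in differentiation, with signals of 5.35, 5.23 and 4.92 in TGFβ1 cultures and 7.30, 7.00 and 6.50 in control cultures (3.41-fold lower, adjusted p = 0.00034). *Asb15*, a muscle-enriched ankyrin repeat protein with a SOCS box, gave 5.48, 5.37 and 5.25 against 7.27, 7.11 and 6.74 (3.2-fold lower, adjusted p = 5.1e-05). *Abcc9* encodes SUR2, the regulatory subunit of ATP-sensitive potassium channels, and gave 6.89, 6.94 and 6.97 with TGFβ1 and 8.49, 8.48 and 8.27 without (2.79-fold lower, adjusted p = 1.2e-05). It is also on the smooth muscle and pericyte list, where *Rgs5*, a regulator of G-protein signalling, was 2.42-fold lower. *Car3*, the carbonic anhydrase abundant in slow muscle, gave 9.01, 9.28 and 9.10 against 10.55, 10.57 and 10.69 (2.77-fold lower, adjusted p = 1.2e-05). Its relative *Car2* fell 2.91-fold, to TGFβ1 signals of 3.66, 4.06 and 4.07 that lay below the array medians. *Tecrl*, a reticulum protein that in humans is linked to catecholamine-sensitive arrhythmia, fell 3.07-fold, *Rxfp1*, the relaxin receptor, fell 3.82-fold, and *Nrn1*, a neurite-promoting surface protein, fell 2.84-fold. The remaining genes of the 20 largest falls were *Lacc1*, *Tm6sf1*, *Psat1*, *Colec10*, *Shisal1*, *Aff2*, *Ctnnal1* and *Dync1i1*, at 2.61-fold to 3.47-fold lower.

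**Figure D2:**
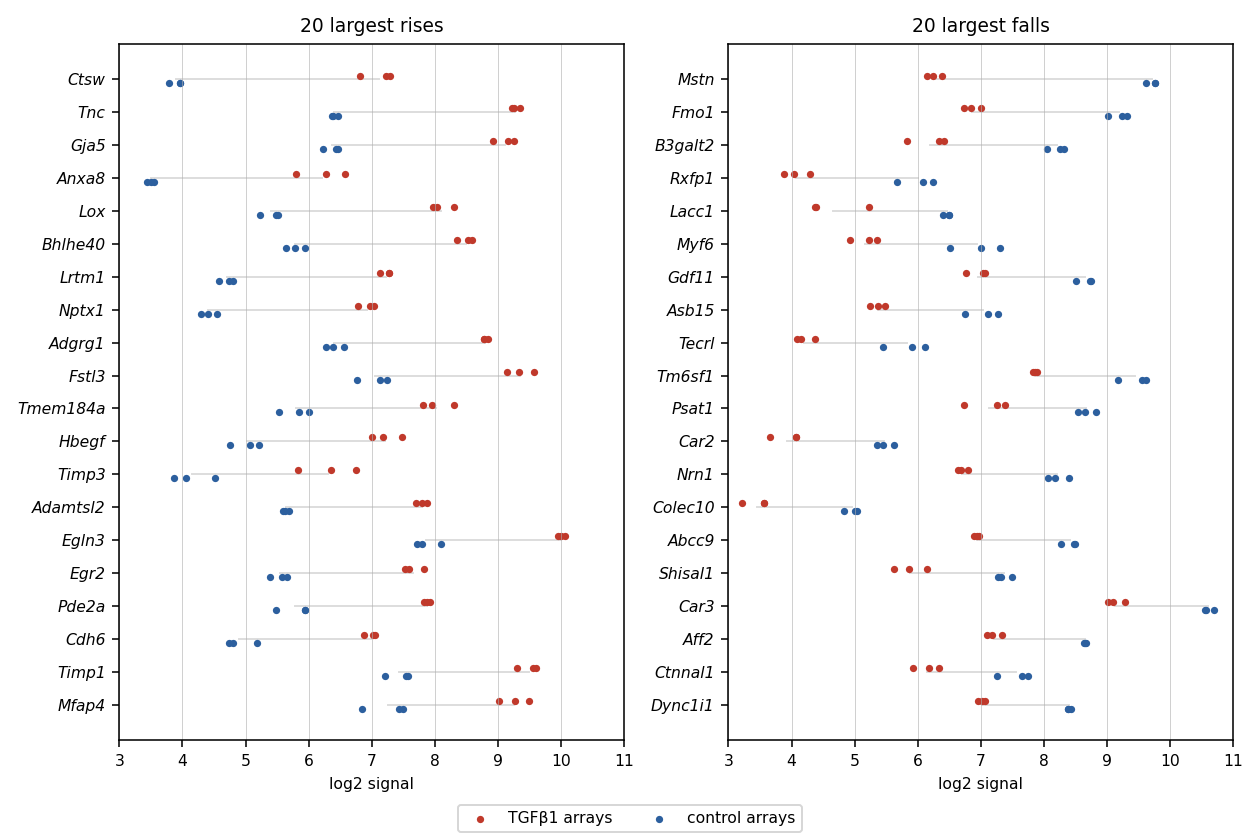
Log2 signal of the 20 largest rises (left) and 20 largest falls (right) in each array, leaving out predicted genes, small RNAs and antigen receptor segments, with TGFβ1 arrays in red drawn above control arrays in blue and a grey line joining the group means. The groups are apart in every row, and *Lacc1* has 1 TGFβ1 array at 5.23, away from the other two at 4.38 and 4.39.

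The same fit was read through 31 protein-coding gene lists, some of which share members. The largest shares called higher were in the feedback and SMAD target list (12 of 20 measured members) and the list of TGFβ, activin and BMP ligands, receptors and antagonists (13 of 34). The largest shares called lower were in the cholesterol synthesis list (12 of 29) and the sarcomere list (23 of 65). Calls were more frequent among well-expressed genes, which such lists favour, so these shares are given as a description. Over all genes tested, 3.65% were called higher and 2.78% lower, and the counts of every list below stand beside these shares.

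**Figure D3:**
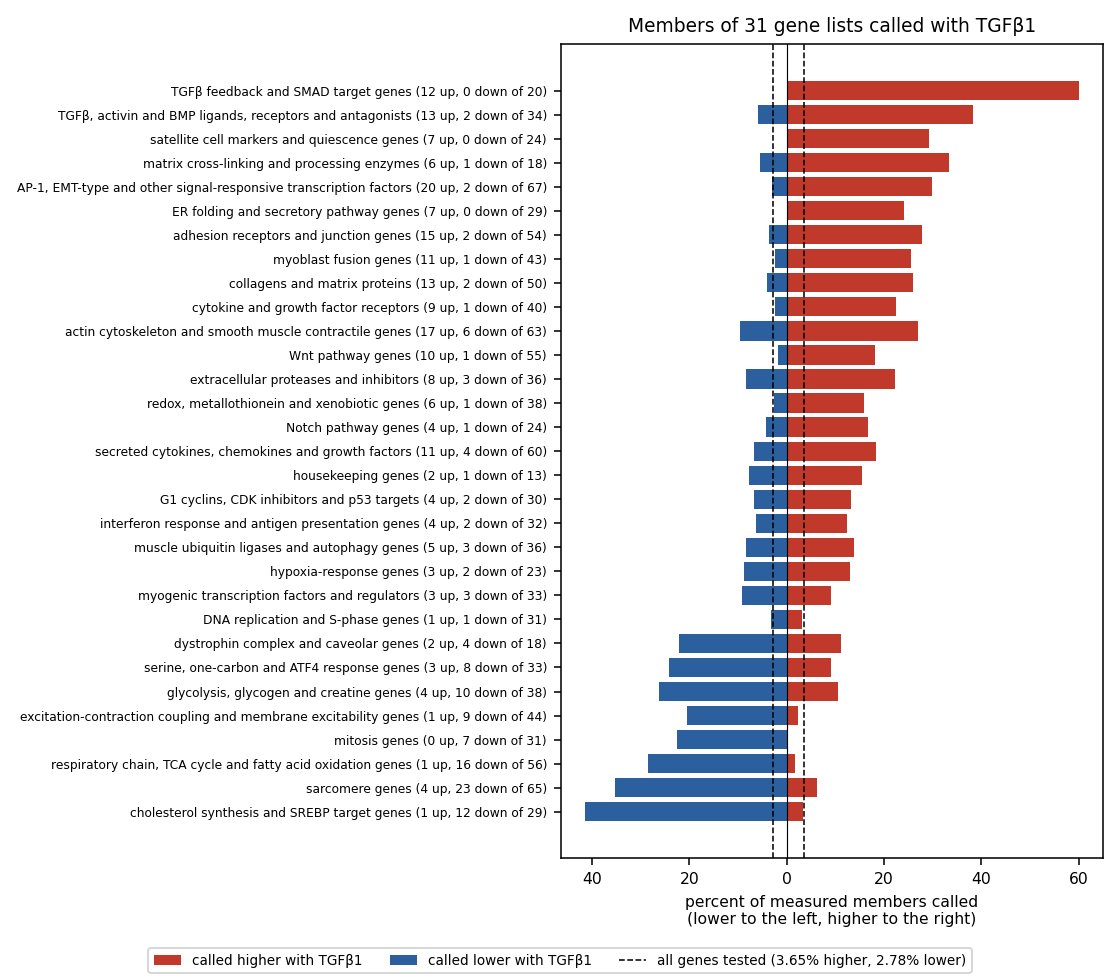
Percent of the measured members of 31 gene lists called higher (red, right) or lower (blue, left) in TGFβ1 compared with control myocytes, with the counts beside each name and dashed lines at the shares of all genes tested (3.65% and 2.78%). The feedback list has 12 of 20 members called higher, and the cholesterol and sarcomere lists at the bottom have 12 of 29 and 23 of 65 called lower.

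Of the 20 feedback and SMAD target genes measured, 12 were called higher and 0 lower. The other 8 were not called, 4 of the 20 had a change below 0, and the median change was 0.48. *Ldlrad4* and *Pmepa1* encode related membrane proteins that keep the receptor from phosphorylating SMAD2 and SMAD3. *Ldlrad4* gave 6.64, 6.43 and 6.39 in TGFβ1 cultures, against 4.78, 4.69 and 4.60 in control cultures (3.48-fold, adjusted p = 1.1e-05). *Pmepa1* gave 10.16, 10.08 and 9.87 against 8.46, 8.49 and 8.29 (3.07-fold, adjusted p = 0.00014). The transcriptional co-repressors *Skil*, *Ski* and *Tgif1* rose 1.95-fold, 1.64-fold and 1.55-fold, and the inhibitory SMAD gene *Smad7*, at 5.99, 5.80 and 5.89 against 5.11, 4.81 and 5.02, rose 1.89-fold (adjusted p = 0.00039). *Ccn2*, the matricellular target also known as CTGF, rose 3.68-fold. The BMP-responsive genes *Id1* and *Id3* were not called, with changes of -0.26 (adjusted p = 0.28) and -0.37 (adjusted p = 0.1), whereas *Id2* was called higher (1.65-fold, adjusted p = 0.0031).

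Among ligands, receptors and antagonists, 13 of 34 measured members were called higher and 2, *Mstn* and *Gdf11*, were called lower. The ligand gene *Tgfb1* itself gave 8.00 to 8.38 in TGFβ1 cultures, against 6.11 to 6.32 in control cultures (3.73-fold, adjusted p = 0.00011). Several of the rises are secreted traps for TGFβ family ligands. *Fstl1*, a follistatin-like glycoprotein, gave 7.84, 7.81 and 7.83 with TGFβ1 and 6.63, 6.62 and 6.63 without (2.29-fold, standard error 0.06, adjusted p = 8.1e-06). *Grem1* encodes gremlin, a BMP antagonist, and gave 8.85, 8.91 and 8.55 against 7.29, 7.34 and 7.34 (2.73-fold, adjusted p = 0.00014). On the receptor side, *Acvr1* and *Bmpr2*, which encode a type I and a type II receptor used by BMPs, rose 1.88-fold and 1.51-fold. *Bmp1*, a protease that matures collagen and frees TGFβ family ligands, rose 2.03-fold. *Inhba*, the activin subunit gene, was not called, at 4.45, 5.12 and 4.31 in TGFβ1 cultures and 3.94, 3.97 and 3.94 in control cultures (adjusted p = 0.068, and 0.036 without TGFβ1 replicate 3 or 0.041 with the replicate block on all 9 arrays).

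Most transcription factors of the response to signals were not called, and rises outnumbered falls among those that were. In a list of AP-1, EMT-type and other signal-responsive factors, 20 of 67 measured members rose and 2 fell, with a median change of 0.19. The zinc-finger gene *Egr2* gave 7.53, 7.83 and 7.59 in TGFβ1 cultures and 5.66, 5.39 and 5.57 in control cultures (4.31-fold, adjusted p = 3e-05). Its relative *Egr3* rose 2.85-fold (adjusted p = 0.0002). *Ets2* gave 8.29, 8.48 and 8.19 against 6.72, 6.45 and 6.59 (3.32-fold, adjusted p = 1.4e-05). *Tbx18*, a T-box factor, rose 2.21-fold, and *Klf9*, *Klf6* and *Klf10*, Krüppel-like factors, rose 2.16-fold, 2.05-fold and 1.94-fold. At 24 h, *Fos* and *Jun*, the founding AP-1 genes, were not called (changes of 0.23 with adjusted p = 0.58, and 0.13 with adjusted p = 0.47), and *Prrx1*, a homeobox gene of mesenchyme, fell (7.35, 7.33 and 7.14 with TGFβ1, against 8.05, 8.10 and 8.18 without, 1.78-fold lower). The count of rises in this list was 13 without replicate 3 of both groups.

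Of 60 secreted cytokines, chemokines and growth factors measured, 11 were called higher and 4 lower, and 7 were called higher without TGFβ1 replicate 2. The falls numbered 2 without TGFβ1 replicate 1, without control replicate 1 and by the analysis of variance. *Hbegf*, a membrane-anchored ligand of the EGF receptor, gave 7.17, 7.48 and 7.00 in TGFβ1 cultures, against 5.08, 4.76 and 5.22 in control cultures (4.59-fold, adjusted p = 2.7e-05). All 3 PDGF ligand genes that were called rose. *Pdgfb* gave 6.23, 6.39 and 5.55 against 4.66, 4.25 and 4.51 (3-fold, adjusted p = 0.0011), *Pdgfc* rose 1.97-fold and *Pdgfa* rose 1.71-fold. *Lif*, a cytokine of the interleukin 6 family, rose 1.66-fold. Another member of that family, *Ctf1*, which encodes cardiotrophin 1, fell 1.96-fold, with 7.19, 6.98 and 6.96 in TGFβ1 cultures and 8.14, 7.92 and 7.98 in control cultures (adjusted p = 0.0013). *Igf2*, an autocrine factor of differentiating muscle, was 11.22, 11.18 and 11.12 with TGFβ1 and 11.53, 11.58 and 11.50 without (1.29-fold lower, adjusted p = 0.0048).

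Among 40 cytokine and growth factor receptors, 9 were called higher and 1, the LIF receptor gene *Lifr*, was called lower. *Fgfrl1*, an FGF receptor without a kinase domain, rose 2.13-fold (adjusted p = 0.00038). The receptor kinase gene *Met*, which binds HGF, gave 8.56, 8.62 and 8.60 with TGFβ1 and 7.93, 7.76 and 7.92 without (1.65-fold, adjusted p = 0.00049), *Axl* rose 1.44-fold and the death receptor gene *Fas* rose 1.73-fold. *Lifr* gave 5.29, 5.23 and 5.30 against 5.59, 5.59 and 5.51 (adjusted p = 0.023), a call that ended at 0.051 and 0.072 with the replicate block on 9 and on 6 arrays, 0.071 and 0.084 without TGFβ1 replicates 1 and 2, and 0.088 and 0.091 without control replicates 1 and 2.

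Of 50 collagens and other matrix proteins, 13 were called higher and 2 lower, with a median change of 0.10, and the 2 falls were 1 by the analysis of variance and without any single array other than TGFβ1 replicate 2. *Col18a1*, a basement membrane collagen, gave 6.70, 6.76 and 6.47 in TGFβ1 cultures and 5.11, 5.19 and 5.19 in control cultures (2.79-fold, adjusted p = 2e-05), and *Thbs1*, thrombospondin 1, which can activate latent TGFβ, gave 11.18, 11.30 and 11.20 against 9.68, 9.86 and 9.83 (2.71-fold, adjusted p = 2.9e-05). Of 18 matrix cross-linking and processing enzymes, 6 were called higher and 1 lower, and the rises included *Plod2*, a lysyl hydroxylase (1.96-fold, adjusted p = 0.00026). Among 36 proteases and inhibitors, 8 were called higher and 3 lower. The falls included *Adamts5*, an aggrecan-cleaving protease, at 6.69, 6.95 and 6.49 against 7.94, 8.17 and 7.77 (2.38-fold lower, adjusted p = 0.00034), and *Adam19*, a membrane-bound sheddase, at 6.24, 6.28 and 6.05 against 7.36, 7.52 and 7.26 (2.28-fold lower, adjusted p = 4.9e-05). The inhibitor genes *Timp1* and *Timp3* were thus higher, and these protease genes lower, in every TGFβ1 array than in any control array. Protease genes did not all fall, since *Ctsw*, the largest rise, is on the same list. The protease gene *Bmp1*, on the list of matrix enzymes, was also called higher.

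Of 63 actin cytoskeleton and smooth muscle contractile genes, 17 were called higher, 6 lower and 40 not called, and the falls numbered 2 without replicate 3 of both groups. *Tagln*, which encodes the smooth muscle protein transgelin, gave 9.25, 9.19 and 8.89 in TGFβ1 cultures and 7.96, 7.88 and 7.96 in control cultures (2.26-fold, adjusted p = 0.00016). *Msn*, encoding moesin, which ties actin to the membrane, rose 1.63-fold, and *Flna*, encoding the actin cross-linker filamin A, rose 1.66-fold. *Arhgef6*, an exchange factor for RAC and CDC42, gave 6.15, 6.38 and 6.07 against 7.52, 7.35 and 7.30 (2.28-fold lower, adjusted p = 0.00018). Adhesion and junction genes had 15 of 54 members called higher and 2, the integrin subunit genes *Itga4* and *Itga6*, called lower. *Gja1*, connexin 43, rose 1.85-fold (6.39, 6.07 and 6.10 against 5.32, 5.26 and 5.33, adjusted p = 0.0029), alongside *Gja5*. *Itga4* gave 6.37, 6.39 and 6.37 with TGFβ1 and 6.85, 7.09 and 7.26 without (1.62-fold lower, adjusted p = 0.0038), while *Itgb5* rose 1.51-fold. The call of *Itga6* ended without replicate 3 of both groups (adjusted p = 0.050).

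The core myogenic factors contrasted with *Myf6*. *Myod1*, a determination factor of muscle, gave 11.47, 11.44 and 11.41 in TGFβ1 cultures and 11.46, 11.45 and 11.49 in control cultures, and *Myog*, which drives terminal differentiation, gave 12.25, 12.21 and 12.18 against 12.33, 12.31 and 12.29. Neither was called, and only the *Myog* groups were apart, by less than 0.1. In the list of myogenic factors and regulators, 3 of 33 were called higher and 3 lower, with a median change of 0.01. The fusion protein gene *Mymk* (Myomaker) lay at 12.57, 12.63 and 12.53 with TGFβ1 and 12.52, 12.50 and 12.46 without and was not called (95% interval of the change -0.05 to 0.22).

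The sarcomere list moved mainly downward, and unevenly. Of 65 measured members, 23 were called lower and 4 higher, and 51 had a change below 0, with a median of -0.19. *Ankrd2*, a stretch-responsive ankyrin repeat protein, gave 6.01, 6.47 and 5.73 in TGFβ1 cultures and 7.38, 7.56 and 7.15 in control cultures (2.45-fold lower, adjusted p = 0.0019). *Tnnc2*, fast troponin C, gave 9.90, 9.78 and 9.74 against 11.08, 10.77 and 10.73 (2.07-fold lower, adjusted p = 0.00086), and *Mybpc1*, slow myosin-binding protein C, gave 7.09, 6.98 and 7.31 against 8.41, 8.11 and 7.89 (2.01-fold lower, adjusted p = 0.0046). Lower calls of 1.71-fold to 1.86-fold were made for *Myom1* and *Ldb3*, which encode an M-band and a Z-disc protein, for *Cap2* and *Tmod1*, which encode actin regulators, and for *Smyd1*, a methyltransferase that assists myosin assembly. By contrast the core genes *Acta1*, *Actc1*, *Ttn* and *Des* had changes of 0.01, -0.10, -0.05 and -0.06, none of them called. *Myh3*, the embryonic myosin gene, was called lower, at 12.11, 12.08 and 12.14 against 12.41, 12.44 and 12.41 (1.24-fold, adjusted p = 0.022). The muscle lineage list, which holds *Myh3* and *Myf6*, had 1 of these 2 falls called with the replicate block on 6 arrays. Leaving out single arrays also brought that count down to 1.

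The 4 sarcomere genes called higher were *Xirp2*, *Myl2*, *Myh7b* and *Myh7*. *Xirp2*, an actin-binding protein of attachment sites, gave 5.04, 5.19 and 5.16 in TGFβ1 cultures, against 3.76, 3.80 and 3.87 in control cultures (2.49-fold, not checked against background, adjusted p = 7.3e-05). *Myl2*, the slow regulatory myosin light chain, gave 4.90, 5.19 and 5.10 against 3.90, 3.72 and 3.85 (2.36-fold, likewise not checked, adjusted p = 0.00026), and *Myh7b*, a slow-type myosin heavy chain, gave 5.81, 5.81 and 5.49 against 4.87, 4.48 and 4.52 (2.11-fold, adjusted p = 0.0014). *Myh7*, slow myosin, was 6.85, 7.03 and 6.75 with TGFβ1 and 6.39, 6.55 and 6.38 without (1.35-fold, adjusted p = 0.022), a call that ended at 0.065 and 0.076 without TGFβ1 replicates 1 and 2, and 0.087 and 0.078 without control replicates 1 and 3.

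Of 44 excitation-contraction coupling and excitability genes, 9 were called lower and 1, the sodium pump subunit gene *Atp1b1*, called higher (adjusted p = 0.014, and 0.065, 0.054 and 0.059 without TGFβ1 replicate 2, TGFβ1 replicate 3 and control replicate 3, 0.15 without replicate 3 of both groups and 0.074 by the analysis of variance). *Trdn*, triadin of the calcium release complex, gave 9.13, 8.89 and 9.17 in TGFβ1 cultures and 10.04, 9.89 and 9.89 in control cultures (1.83-fold lower, adjusted p = 0.00053). *Atp2a1*, the fast-muscle calcium pump SERCA1, gave 10.07, 10.04 and 10.09 against 10.90, 10.91 and 10.72 (1.71-fold lower, adjusted p = 0.0014). *Stac3*, an adaptor of the voltage sensor, fell 1.45-fold, and *Jph1*, which holds the reticulum against the membrane, fell 1.53-fold. The acetylcholine receptor subunit genes *Chrna1*, *Chrnb1* and *Chrne* had changes of 0.04, 0.00 and -0.04 and were not called. In the dystrophin and caveolar list, 4 of 18 were lower (2 by the analysis of variance and without TGFβ1 replicate 2, control replicate 2 or control replicate 3) and 2 higher (0 without control replicate 1, and 1 without control replicate 2 or with the replicate block on 6 arrays). The list was led by *Cavin2*, a coat protein of caveolae, at 7.42, 7.21 and 7.14 against 8.61, 8.67 and 8.59 (2.58-fold lower, adjusted p = 1.7e-05).

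**Figure D4:**
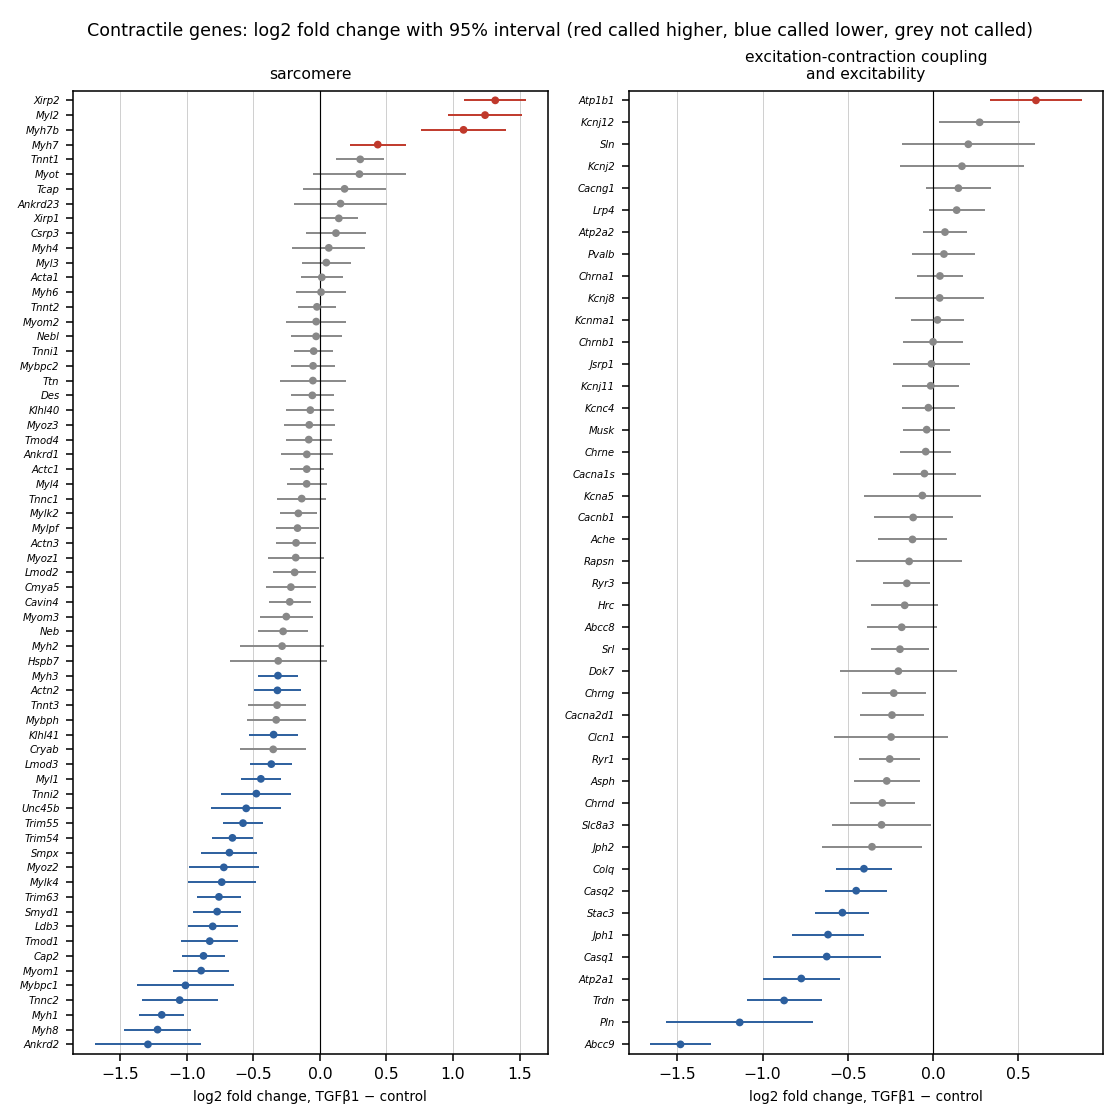
Log2 change (TGFβ1 minus control) with its 95% interval for 65 sarcomere genes (left) and 44 excitation-contraction coupling and excitability genes (right), in red where called higher, blue where called lower and grey where not called. Of the 65 and 44 changes, 51 and 32 are below 0, with *Ankrd2* and *Abcc9* at the bottom, while *Xirp2*, *Myl2* and *Myh7b* stand apart on the right.

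The MEF2 box, an AT-rich element of muscle promoters bound by MEF2 factors, was looked for in the same RefSeq windows. It occurred in 14.8% of the 61 windows of the sarcomere list and in 1.64% of all windows. The shares were 11.4% (8 of 70 windows) for genes that fell at least 2-fold and 2.70% of 148 windows for those that rose as much. The sarcomere list and these falls share genes, *Myh8* among them. Over every called gene the shares were smaller, at 3.90% of 744 windows for falls and 1.27% of 942 windows for rises. In the 250 bases before the start, the share for falls of at least 2-fold was 8.57%, or 6 of 70 windows, against 1.53% of all windows. The promoters of *Myh8*, the perinatal myosin gene, and *Pgam2*, which encodes the muscle phosphoglycerate mutase of glycolysis, are shown because both genes fell and each holds 1 match in capitals, at -99 and -80 from the start. They lie at chr11:67276874-67277123 on the plus strand and chr11:5803797-5804046 on the minus strand. *Myh8* signals were 7.96, 8.25 and 8.15 in TGFβ1 cultures and 9.46, 9.40 and 9.15 in control cultures (2.33-fold lower, adjusted p = 0.00018), and *Pgam2* signals were 7.01, 6.92 and 6.55 against 8.13, 7.90 and 7.58 (2.06-fold lower, adjusted p = 0.0067, and 0.059 by the methods' analysis of variance).
Myh8: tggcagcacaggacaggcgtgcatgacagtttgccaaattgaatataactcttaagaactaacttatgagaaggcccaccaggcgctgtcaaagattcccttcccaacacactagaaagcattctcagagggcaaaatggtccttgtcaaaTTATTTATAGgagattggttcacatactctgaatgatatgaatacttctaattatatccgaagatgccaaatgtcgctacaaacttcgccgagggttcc
Pgam2: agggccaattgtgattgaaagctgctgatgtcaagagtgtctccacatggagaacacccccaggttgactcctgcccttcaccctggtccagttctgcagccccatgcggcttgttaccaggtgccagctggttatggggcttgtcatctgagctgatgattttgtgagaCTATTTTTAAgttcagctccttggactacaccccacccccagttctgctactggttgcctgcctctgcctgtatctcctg

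Energy metabolism genes tended downward by small amounts. Of 56 genes of the respiratory chain, the TCA cycle and fatty acid oxidation, 53 had a change below 0, the median was -0.26 and 16 were called lower. The number of calls was fragile, at 5 without control replicate 1, 7 without control replicate 2, 10, 7 and 6 without TGFβ1 replicates 1, 2 and 3, and 8 by the analysis of variance. *Lpl*, lipoprotein lipase, which frees fatty acids for uptake, gave 4.17, 4.44 and 4.10 in TGFβ1 cultures and 5.45, 5.80 and 5.50 in control cultures (2.55-fold lower, adjusted p = 0.00016). *Ndufa5*, a subunit of complex I, gave 7.90, 7.90 and 7.89 against 8.51, 8.45 and 8.30 (1.44-fold lower, adjusted p = 0.0028). The 1 member called higher was *Cpt1a*, the non-muscle form of the enzyme that admits fatty acids to mitochondria, at 8.10, 8.13 and 8.04 against 7.65, 7.55 and 7.68 (1.38-fold, adjusted p = 0.0019).

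Glycolysis, glycogen and creatine genes were divided, with 10 of 38 called lower and 4 higher. The rises included both cytosolic creatine kinases, which buffer ATP. *Ckb*, the brain form, gave 10.38, 10.48 and 10.45 in TGFβ1 cultures and 9.11, 8.85 and 8.75 in control cultures (2.89-fold, adjusted p = 1.8e-05), and *Ckm*, the muscle form, gave 8.82, 8.83 and 8.58 against 7.94, 7.84 and 7.63 (1.91-fold, adjusted p = 0.00051). On the other side, *Pygm*, muscle glycogen phosphorylase, gave 10.18, 10.12 and 10.06 against 10.98, 10.92 and 10.77 (1.7-fold lower, adjusted p = 0.00021). The lactate and pyruvate transporter gene *Slc16a1* was 1.95-fold lower, *Tpi1*, triosephosphate isomerase, 1.65-fold lower, and *Slc2a4*, the insulin-responsive glucose transporter GLUT4, 1.53-fold lower. The analysis of variance called 6 of the 38 lower.

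The clearest metabolic group was cholesterol synthesis, in which 12 of 29 measured genes were called lower and 1 higher, with a median change of -0.32. The count of falls was 10 or 11 when any single array was left out. Falls were called at early, middle and late steps of the pathway. *Hmgcs1*, HMG-CoA synthase, gave 8.29, 8.44 and 8.50 in TGFβ1 cultures and 9.10, 8.98 and 8.89 in control cultures (1.5-fold lower, adjusted p = 0.0036). *Pmvk* and *Fdps*, of the mevalonate and isoprenoid steps, were 1.68-fold and 1.63-fold lower. The sterol-modifying enzyme genes *Msmo1*, *Nsdhl*, *Hsd17b7* and *Dhcr7* were 1.65-fold to 1.92-fold lower, with *Hsd17b7* at 7.34, 7.31 and 7.40 against 8.33, 8.27 and 8.27 (adjusted p = 0.00019). *Fads1*, a fatty acid desaturase, was the member called higher (1.49-fold, adjusted p = 0.0052). The fatty acid synthesis gene *Fasn* had a change of 0.17 and the sterol sensor gene *Srebf2* one of -0.13, and neither was called.

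The promoter of *Hmgcs1* is shown for this group (chr13:119690101-119690350, plus strand, 250 bases before the start). Capitals mark 1 sterol element TCACNCCAC at -137 and 3 CCAAT boxes, as CCAAT or its reverse complement, at -237, -176 and -45. The CCAAT box, bound by the factor NF-Y, occurred in 74.1% of the 27 windows of the list and in 37.8% of all windows. The sterol element occurred in 3.70% of the list's windows, which is 1 of 27, and in 1.22% of all windows. That 1 window is the *Hmgcs1* promoter shown, so it does not stand for the other members.
Hmgcs1: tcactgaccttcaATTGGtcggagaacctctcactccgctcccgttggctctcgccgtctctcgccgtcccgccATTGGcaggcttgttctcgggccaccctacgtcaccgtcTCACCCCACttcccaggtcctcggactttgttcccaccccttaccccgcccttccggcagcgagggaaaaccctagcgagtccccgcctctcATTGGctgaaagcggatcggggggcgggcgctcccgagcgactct

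**Figure D5:**
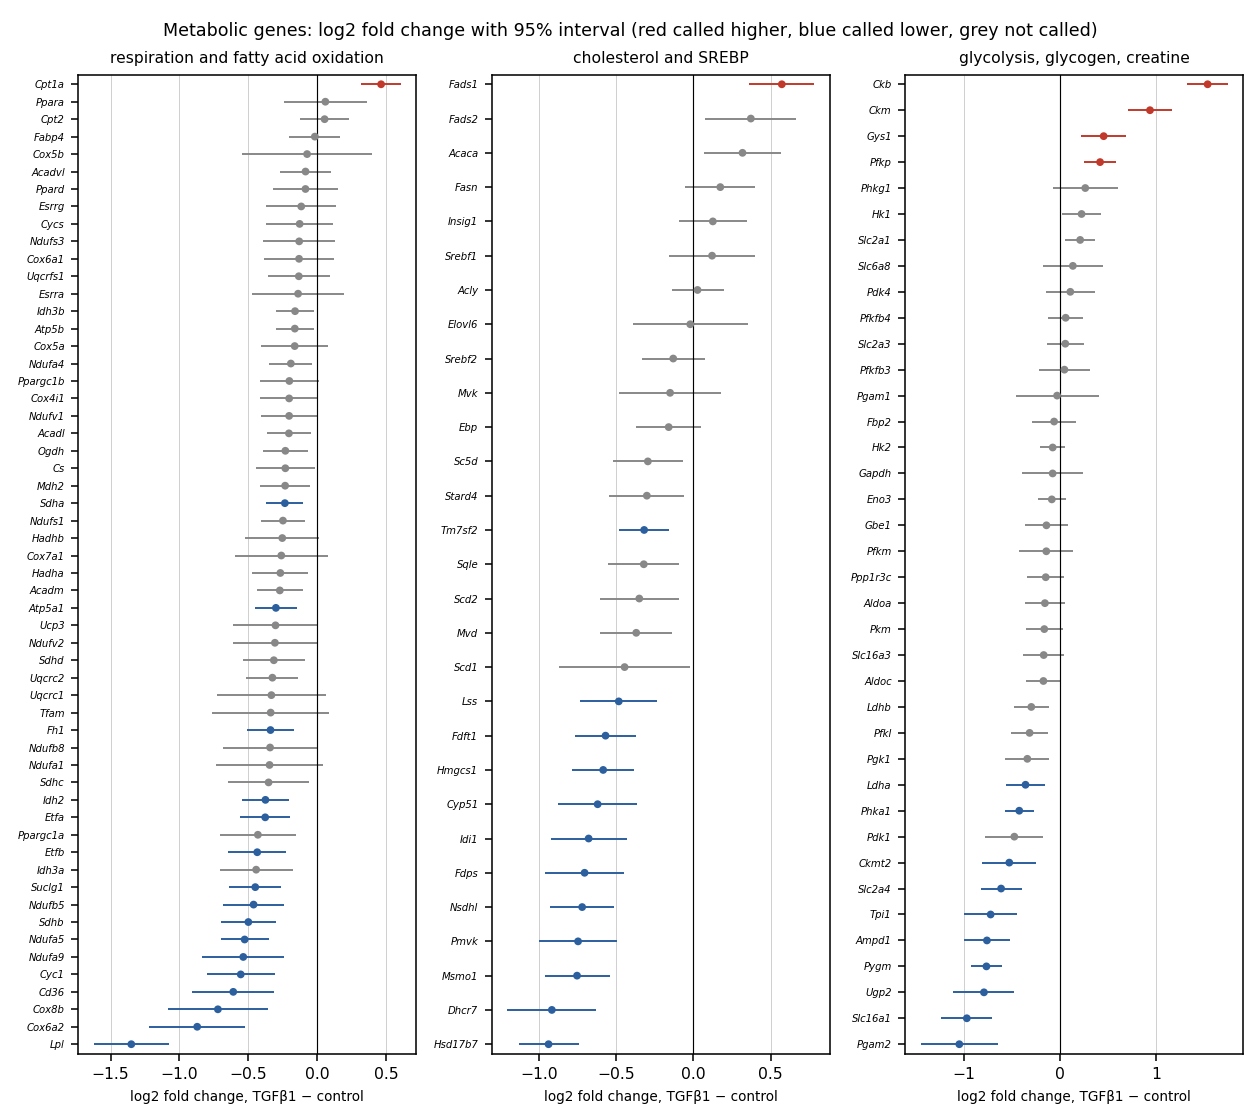
Log2 change (TGFβ1 minus control) with its 95% interval for genes of respiration and fatty acid oxidation (56, left), cholesterol synthesis and SREBP targets (29, middle) and glycolysis, glycogen and creatine (38, right), coloured as called higher (red), called lower (blue) or not called (grey). In the left panel 53 of 56 points lie below 0 and most are grey, whereas *Ckb* and *Ckm* stand out to the right in the right panel.

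Genes of serine synthesis, one-carbon metabolism and the ATF4 response tended downward, with 8 of 33 called lower and 3 higher. The rises included *Ddit4* (1.96-fold, adjusted p = 0.0086) and *Stc2* (1.67-fold, adjusted p = 0.0017). They numbered 3 with either replicate block and 2 by the analysis of variance. *Psat1*, an enzyme of serine synthesis, gave 7.39, 7.26 and 6.74 in TGFβ1 cultures, against 8.65, 8.83 and 8.54 in control cultures (2.92-fold lower, adjusted p = 0.00026). The count of falls was 4 without control replicate 2, 5 without TGFβ1 replicate 1 or 2, 2 without replicate 3 of both groups, and 1 by the analysis of variance, while *Psat1* was called in every setting tried. Genes for protein folding and secretion in the endoplasmic reticulum tended upward, with 25 of 29 above 0, 7 called higher and 0 lower. *Dnajb9*, a reticulum co-chaperone, gave 8.06, 8.28 and 8.01 against 7.50, 7.56 and 7.38 (1.55-fold, adjusted p = 0.0014). *P4hb*, which forms disulfides and hydroxylates collagen, rose 1.38-fold and the calcium-binding *Rcn3* rose 1.72-fold. That count of rises was 3 without TGFβ1 replicate 2 and 4 without TGFβ1 replicate 1, control replicate 2 or control replicate 3. It was also 4 without replicate 3 of both groups and by the analysis of variance.

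Of 31 mitosis genes, 26 had a change below 0 and 7 were called lower, among them *Top2a*, the topoisomerase of chromosome separation, at 4.55, 4.63 and 4.46 in TGFβ1 cultures and 5.48, 5.02 and 5.28 in control cultures (1.64-fold lower, adjusted p = 0.0036, and 0.058 without replicate 3 of both groups). The 7 calls became 1 without TGFβ1 replicate 2 or by the analysis of variance. They became 2 without TGFβ1 replicate 1, control replicate 1 or replicate 3 of both groups, and 3 without control replicate 3. DNA replication genes did not move as a group, with 1 of 31 called higher (*Mcm6*, whose adjusted p of 0.041 was 0.081 to 0.16 without single arrays other than TGFβ1 replicate 3 and 0.078 with the replicate block on all 9 arrays), 1 lower (*Rrm1*) and a median change of 0.00. The CDK inhibitor gene *Cdkn1a*, which holds myocytes out of the cycle, was 12.76, 12.77 and 12.70 with TGFβ1 and 12.78, 12.76 and 12.68 without (change 0.00, adjusted p = 0.99). *Pmaip1*, the pro-apoptotic gene NOXA, rose 2.22-fold (adjusted p = 0.00016).

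Stress and atrophy genes changed one by one. *Ahr*, the aryl hydrocarbon receptor, gave 7.49, 7.52 and 7.41 in TGFβ1 cultures and 6.34, 6.16 and 6.15 in control cultures (2.39-fold, adjusted p = 6.1e-05), *Gclc*, of glutathione synthesis, rose 1.73-fold, and the metallothionein genes *Mt1* and *Mt2* rose 1.59-fold and 1.92-fold. *Foxo1*, a driver of muscle atrophy genes, rose 1.54-fold (adjusted p = 0.00055). The best known atrophy ubiquitin ligases went opposite ways, since *Fbxo32* (atrogin 1) rose 1.41-fold with 7.42, 7.62 and 7.60 against 6.99, 7.05 and 7.11 (adjusted p = 0.0039), whereas *Trim63* (MuRF1) fell 1.69-fold with 5.99, 5.97 and 6.15 against 6.81, 6.82 and 6.76 (adjusted p = 0.00026). Besides *Egln3*, the hypoxia list had 2 members called higher and 2 lower of 23. No fall was called without control replicate 1 or 2 or by the analysis of variance, and 1 was called without TGFβ1 replicate 1 or 3. Its glucose transporter gene *Slc2a1* was not called (change 0.21, adjusted p = 0.13). In the interferon list, 4 of 32 were called higher (2 with the replicate block on 6 arrays and 1 by the analysis of variance) and 2 lower (1 with either replicate block, by the analysis of variance, and without TGFβ1 replicates 1 or 3 or control replicates 1 or 2). Among them were *Ifit1* at 7.79, 7.82 and 7.72 against 8.63, 8.58 and 8.58 (1.76-fold lower, adjusted p = 7.5e-05) and *Usp18*, which limits the interferon receptor, 1.92-fold higher (adjusted p = 0.0037).

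Genes linked to the satellite cell state had 7 of 24 members called higher and 0 lower. *Spry1*, an inhibitor of growth factor signalling needed for quiescence, gave 7.84, 7.97 and 7.67 in TGFβ1 cultures and 6.98, 6.95 and 6.79 in control cultures (1.89-fold, adjusted p = 0.00031), *Spry2* rose 1.41-fold, and the chemokine receptor gene *Cxcr4* rose 1.73-fold. The lineage factor gene *Pax7* was not called, at 7.04, 6.99 and 6.68 against 6.36, 6.68 and 6.85 (adjusted p = 0.42), and its groups overlapped. In the Notch pathway, 4 of 24 were higher and 1 lower. The ligand gene *Dll1* gave 8.15, 8.02 and 8.03 with TGFβ1 and 6.95, 6.97 and 7.08 without (2.09-fold, adjusted p = 3.9e-05), while the receptor gene *Notch1* gave 6.71, 6.66 and 6.71 against 7.40, 7.55 and 7.38 (1.68-fold lower, adjusted p = 0.00032). In the Wnt pathway, 10 of 55 were higher and 1 lower, with the receptor gene *Lgr6* 2.99-fold higher (6.14, 6.51 and 6.01 against 4.88, 4.43 and 4.62) and the receptor gene *Fzd5* 2.14-fold lower (5.10, 4.90 and 5.04 against 6.06, 6.08 and 6.19). In the fusion list, where 11 of 43 were higher and 1 lower (0 without any single TGFβ1 array or with the replicate block on 6 arrays), *Ptgs2*, the inducible prostaglandin synthase, gave 8.60, 8.78 and 8.53 against 6.69, 6.81 and 6.82 (3.64-fold, adjusted p = 3.7e-05).

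Of 543 miRNA genes tested, 3 were called higher (0.552%, beside 3.65% of all genes) and 2 lower (0.368%, beside 2.78%). Signals of 421 of the 543 lay below the median gene, and calls were rare at such levels, at 0.032% and 0.583% higher and 0.049% and 0.389% lower in the lowest 6176 genes and the 6176 above them. The probe sets report precursor or host RNA and not the mature form. *Mir181b-2* gave 4.81, 5.02 and 4.65 in TGFβ1 cultures, against 4.14, 3.90 and 4.14 in control cultures (1.7-fold, adjusted p = 0.011, 0.052 without control replicate 2 and 0.070 by the analysis of variance). Its neighbour on chromosome 2, *Mir181a-2*, gave 5.08, 5.27 and 5.29 against 4.78, 4.32 and 4.87 and was not called (1.47-fold, adjusted p = 0.062, and 0.042 with the replicate block on all 9 arrays). In both genes the TGFβ1 arrays lay above the control arrays. Their RefSeq mature 5p forms are shown because they share the seed, bases 2 to 8, given in capitals.
mmu-miR-181b-5p: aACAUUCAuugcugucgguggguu
mmu-miR-181a-5p: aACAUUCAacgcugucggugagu
The other called miRNA genes were *Mir692-1* and *Mir697*, higher, and *Mir5120* and *Mir3095*, lower, with adjusted p values of 0.036 to 0.047 that missed 0.05 in at least 10 alternative settings, a replicate block among them. Of the muscle miRNA genes, *Mir133a-1* came closest to a call, at 2.64, 2.70 and 2.82 against 3.43, 3.65 and 3.07 (1.59-fold lower, adjusted p = 0.06, and 0.030 without control replicate 3).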

How the data were processed

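RNA from 9 cultures was hybridised by the authors to 1 array each, and the 3 TGFβ1 and 3 control arrays are compared. The deposited values are log2 signals that the authors made with RMA (background correction, quantile normalization, summary of probes) and the custom CDF version 22. The submitters' processing notes also name Partek. Sequencing depth does not apply to arrays, and the number of arrays limits the precision. Of 25428 probe sets, 24704 with a single gene symbol were tested, 723 had no symbol and 1 repeated a symbol. Groups were taken from the sample labels. limma 3.58.1 in R 4.3.3 (lmFit, eBayes) fitted group means on all 9 arrays, two-sided, with Benjamini-Hochberg adjustment over the 24704.

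Same-numbered arrays of both groups had residual correlations of 0.138, 0.155 and 0.305, all over 0.1, so the replicate number was tried as a block. TGFβ1 replicate 2 and control replicate 1 gave 0.102. The alternatives were other normalizations, a level filter, other variance settings, the methods' analysis of variance, fewer arrays, array weights, the replicate block and leaving out arrays. Leaving out replicate 3 of both groups was added after seeing the data.

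Members and lists were chosen with earlier results of these data known. Genes named were the 20 largest rises and falls, the 4 list members with the smallest adjusted p, markers and a few landmarks. Other list members, and the fast- and slow-fibre lists, were chosen after their values were seen. Motifs were counted on both strands of RefSeq windows of GRCm38.p6. The AP-1 site, the E-box, the CArG box and a palindromic SMAD element were counted as well and are not described. The fit was tested on simulated data.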

Additional observations from a re-analysis of the deposited data

How the results depend on the processing

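The 902 rises became 595 and the 687 falls 416 without replicate 3 of both groups, and the methods' criteria (unadjusted p under 0.05 and at least 1.5-fold) gave 509 and 316. Leaving out 1 array at a time gave 619 to 851 rises and 434 to 606 falls. The other settings gave 616 rises and 476 falls at the low end (the methods' analysis of variance after Benjamini-Hochberg adjustment) and 1244 and 976 at the high end (array weights). Counts of at least 2-fold changes stayed at 140 to 188 and 63 to 84. With the replicate number as a block the counts were 847 and 671 on all 9 arrays and 858 and 653 on 6. The block ended the calls of 7 and 12 of the 156 called genes that the naming rule gave, moved no count of calls over all genes by more than 1.5 times, and changed no other call named in the text than those given beside it. Of these 156 genes, 124 were called in every one of up to 16 settings that tested them, 32 were lost in at least 1, and none changed direction. The number of arrays and the low signal of many genes limit what could be called.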

Other observations

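Fibre-type genes, grouped in a pair of lists drawn up after their values were seen, were distributed unevenly. Of 14 fast-fibre genes, 7 were called lower in TGFβ1-treated myocytes and 0 higher, with a median change of -0.38, beside 2.78% of all genes called lower. Those called included *Myh1*, the fast 2X myosin gene, with log2 signals of 9.76, 9.61 and 9.85 in TGFβ1 cultures and 10.98, 10.94 and 10.86 in control cultures (2.28-fold lower), and *Myl1*, the fast essential light chain (1.36-fold lower). *Myh2* and *Myh4*, the other fast adult myosin genes, were not called, with changes of -0.28 and 0.07. Of 12 slow-fibre genes, 4 were called higher and 2 lower, with a median change of 0.16, beside 3.65% of all genes called higher and 2.78% lower. *Mb*, which encodes the oxygen-binding protein myoglobin of oxidative fibres, gave 10.33, 10.36 and 10.37 in TGFβ1 cultures and 9.27, 9.22 and 9.22 in control cultures (2.17-fold, adjusted p = 3.7e-05 by limma), beside changes below 0 in 53 of the 56 respiratory and fatty acid oxidation genes. The 2 slow-fibre genes called lower were *Myoz2* (1.65-fold) and *Casq2* (1.37-fold). The slow-fibre list did not hold *Mybpc1*, slow myosin-binding protein C, or *Car3*, abundant in slow muscle. Both were called lower by larger folds than *Myoz2*, so the contrast between the lists depends on which members were chosen.

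A T-cell receptor segment, *Trbj2-3*, gave 7.02, 7.11 and 6.59 in TGFβ1 cultures and 4.88, 4.42 and 4.87 in control cultures (4.54-fold, adjusted p = 7.7e-05 by limma), and like *Ctsw* it rose without other T-cell markers. *Pparg*, the adipocyte regulator, fell 1.87-fold (4.39, 4.15 and 4.26 against 5.04, 5.19 and 5.28), and *Scx*, a tendon factor, rose 1.51-fold (9.91, 9.93 and 9.83 against 9.35, 9.23 and 9.32). *Gstm7*, a glutathione transferase, gave 4.55, 4.70 and 5.25 with TGFβ1 and 5.85, 5.96 and 5.99 without (2.15-fold lower, adjusted p = 0.0044).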
